A study of Drosophila melanogaster with 4 samples.

Results

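The ecdysone receptor and the genes that carry its signal were followed in larval brain RNA. The 10 genes were chosen by name, namely *EcR*, *usp*, *br*, *Eip74EF*, *Eip75B*, *Eip78C*, *Hr3*, *Hr39*, *ftz-f1* and *Eip93F*, and all 10 were found by their FlyBase identifiers among the 23932 features counted. Brains came from larvae at the wandering stage of the last instar (WL3). Larvae labelled *orb2* RNAi expressed a hairpin against *orb2*, an RNA binding protein gene, and larvae labelled *white* RNAi expressed a hairpin against the eye color gene *white* as the control. Both carried *insc*-GAL4, a driver active in neuroblasts and their progeny, so the whole brains sequenced also held cells that the driver does not reach. Each label had 2 replicates of 60 brains, dissected in batches of 20.

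Ecdysone is the steroid hormone that times molting and metamorphosis in insects. Its active form, 20-hydroxyecdysone, binds EcR, which works as a heterodimer with Usp, the fly ortholog of the vertebrate RXR receptors. The hormone pulse at the end of larval life first switches on early genes, many of which encode transcription factors, and these then turn on later genes and turn off the early ones. In the larval brain the receptor is known to help neuroblasts switch from early to late temporal factors and to drive the remodelling of mushroom body neurons at metamorphosis.

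Values are CPM, that is counts scaled to a common library size, after TMM scaling, which corrects for composition. Pairs of values for a label are given with replicate 1 before replicate 2. Total counts were 75.41 and 55.83 M in libraries labelled *orb2* RNAi, against 61.43 and 34.61 M in those labelled *white* RNAi. The target gene did not follow its label, as *orb2* was at 105.3 and 53.6 CPM in libraries labelled *orb2* RNAi, against 17.1 and 15.3 CPM in those labelled *white* RNAi. Every direction below therefore follows the labels only. Brain markers were present in all libraries, with the 9 neuron markers summing to 3580 and 3149 CPM under the *orb2* RNAi label, against 4452 and 2433 CPM under the *white* RNAi label. The 6 glia markers summed to 718 and 1038 CPM under the *orb2* RNAi label, against 659 and 1173 CPM under the *white* RNAi label. Markers of other tissues were also counted. The 6 salivary gland markers summed to 127 and 1305 CPM under the *orb2* RNAi label, against 37.1 and 161 CPM under the *white* RNAi label. The 6 fat body markers summed to 750.3 and 2638 CPM under the *orb2* RNAi label, against 4559.7 and 519 CPM under the *white* RNAi label. The 8 muscle markers followed the labels, summing to 627 and 579 CPM under the *orb2* RNAi label, against 129 and 298 CPM under the *white* RNAi label. The *orb2* RNAi label held the 2 highest libraries for 7 of these 8, against 18.5% of all features. DESeq2 called *Mlp84B*, *Prm* and *up* higher, against 0.879% of features in either direction, while edgeR called 0. Muscle was not alone in this, as the label held the 2 highest libraries for 3 of the 6 salivary gland markers. DESeq2 also called *Sgs1* and *Sgs4* of that list higher, and 1 of the 8 imaginal disc markers, *ss*. The *orb2* RNAi label held the 2 highest libraries for 3 of these 8 and the 2 lowest for 0, against 18.5% and 11.7% of all features. They summed to 425 and 352 CPM under the *orb2* RNAi label, against 358 and 250 CPM under the *white* RNAi label. No marker of the neuron, glia, salivary gland, fat body and muscle lists was at 0 in any library. In such bulk RNA, fewer cells of a type and less RNA per cell cannot be told apart.

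All 10 genes passed the filter on low counts. None was called between the labels, and the 2 replicates of a label differed more than the 2 labels for most of them. For 7 of the 10, both replicates 1 lay above both replicates 2, whatever the label. After correction of each library for exon length, 4 of these 7 still had that order, so the size of the pattern depends on the correction.

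*EcR* (FBgn0000546), which encodes the hormone receptor itself, spans 6087873 to 6169087 of chromosome 2R, minus strand (this and later positions are from the BDGP6.54 annotation). It was at 161 and 149 CPM in libraries labelled *orb2* RNAi, against 149 and 91.3 CPM in those labelled *white* RNAi. It was the only one of the 10 genes whose labels did not overlap, but the nearest libraries were almost equal. Replicate 2 labelled *orb2* RNAi was at 149.5 CPM (95% exact Poisson interval of its count 146.3 to 152.7), against 148.6 CPM (145.6 to 151.7) in replicate 1 labelled *white* RNAi. The low library was thus replicate 2 labelled *white* RNAi, and the other 3 lay close together. This rests on the scaling. Under the *white* RNAi label the log2 ratio of replicate 1 over replicate 2 was 0.70, but -0.136 after correction for exon length. The means were 155 ± 8.40 CPM in libraries labelled *orb2* RNAi and 120.0 ± 40.5 CPM in those labelled *white* RNAi (SD, n = 2 each). The log2 fold change was 0.37 (standard error 0.295, edgeR quasi-likelihood fit, Benjamini-Hochberg adjusted p = 0.9998), and it was 0.06 without replicate 2 labelled *white* RNAi. With DESeq2's size factors in place of TMM, 0 of the 10 genes separated the labels.

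*usp* (FBgn0003964, chromosome X, 2038798 to 2042311, minus strand) encodes the partner of EcR. It was the steadiest of the 10 genes, at 94.6 and 77.6 CPM in libraries labelled *orb2* RNAi, against 79.8 and 93.0 CPM in those labelled *white* RNAi. Its libraries crossed, with the high value in replicate 1 under one label and in replicate 2 under the other. The highest library was 1.22 times the lowest, and its log2 fold change was -0.0042 (standard error 0.219). Per kilobase of exon, *EcR* stood at 0.522 and 0.589 times the level of *usp* in libraries labelled *orb2* RNAi, against 0.570 and 0.30 times in those labelled *white* RNAi. Exons of *usp* share 8.72% of their bases with the neighbors *Actn* and *CG4313*, so its counts are slightly uncertain.

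**Figure D1:**
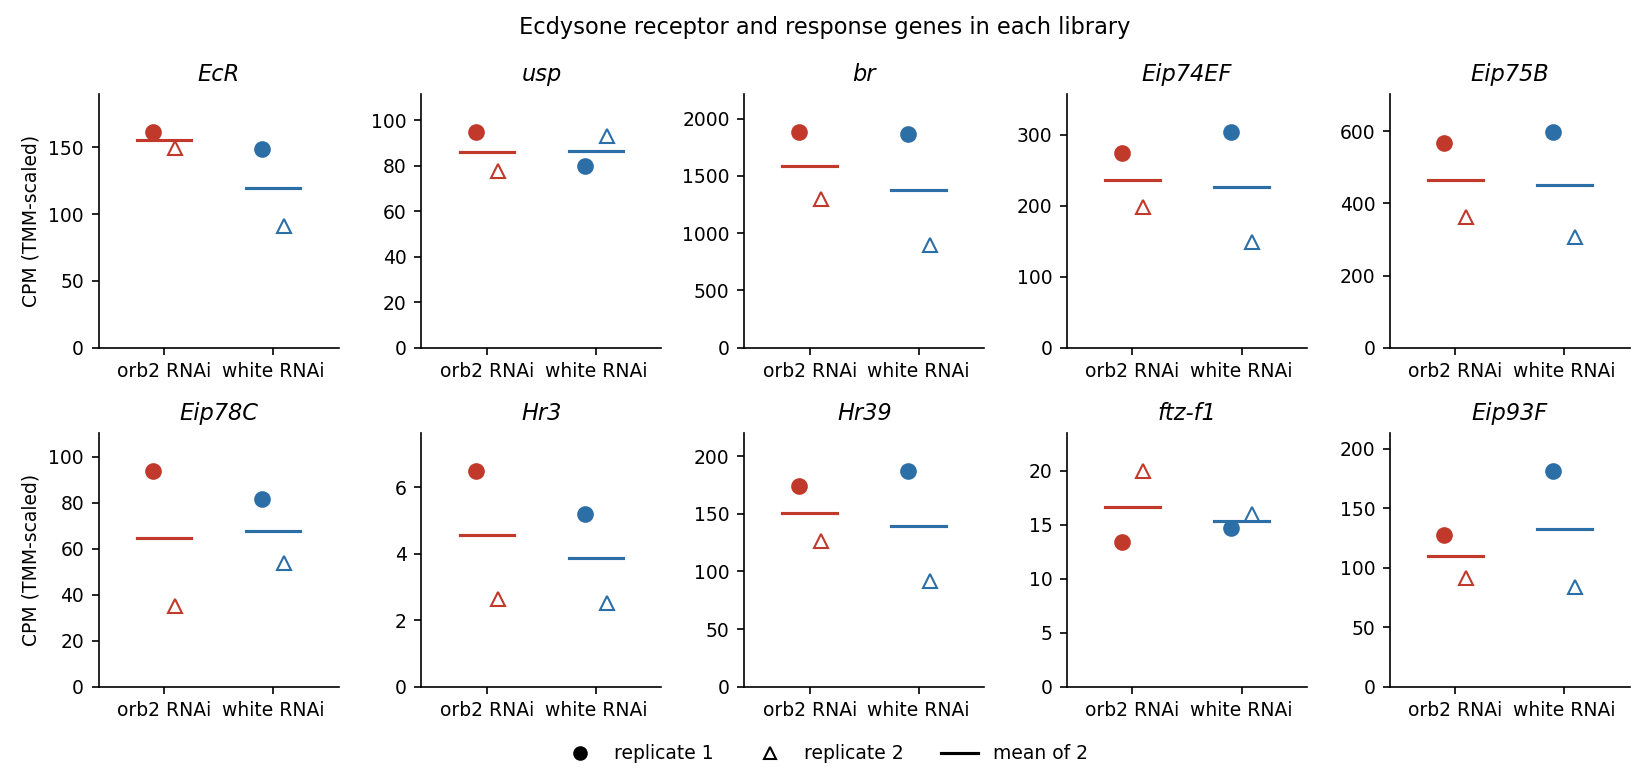
Level of each of the 10 genes in CPM (vertical axes, each starting at 0) in libraries labelled *orb2* RNAi (left, red) and *white* RNAi (right, blue), with circles for replicates 1, open triangles for replicates 2 and a line at the mean of 2. The circles lie above the triangles under both labels for *EcR*, *br*, *Eip74EF*, *Eip75B*, *Eip78C*, *Hr3*, *Hr39* and *Eip93F*, and below them for *ftz-f1*.

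The early genes *br*, *Eip74EF* and *Eip75B* each had both replicates 1 above both replicates 2. *br* (FBgn0283451, chromosome X, 1575132 to 1664869, plus strand) encodes the Broad family of zinc finger transcription factors, which mark entry into metamorphosis. It had the highest level of the 10 genes, at 1881 and 1301 CPM in libraries labelled *orb2* RNAi, against 1865 and 893 CPM in those labelled *white* RNAi. Both replicates 1 were almost equal, and the labels overlapped. The means were 1591 ± 411 CPM and 1379 ± 687 CPM in libraries labelled *orb2* RNAi and *white* RNAi (SD, n = 2 each), and the log2 fold change was 0.21 (standard error 0.469).

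*Eip74EF* (FBgn0000567, chromosome 3L, 17558672 to 17619325, minus strand) encodes an ETS domain transcription factor and is a classic early puff gene. It was at 274 and 197 CPM in libraries labelled *orb2* RNAi, against 303 and 149 CPM in those labelled *white* RNAi. Both libraries labelled *orb2* RNAi lay inside the range of those labelled *white* RNAi. *Eip75B* (FBgn0000568, chromosome 3L, 17950953 to 18064696, minus strand) is also a classic early puff gene and encodes a heme-binding nuclear receptor that can block Hr3. It was at 566 and 362 CPM in libraries labelled *orb2* RNAi, against 597 and 307 CPM in those labelled *white* RNAi, again with both *orb2* RNAi values inside the *white* RNAi range. The log2 fold changes were 0.061 for *Eip74EF* and 0.038 for *Eip75B*, with standard errors of 0.412 and 0.429, far above the changes themselves.

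*Eip78C* (FBgn0004865, chromosome 3L, 21226609 to 21266503, plus strand) encodes a nuclear receptor related to Eip75B. It varied more over the libraries than any other of the 10 genes, at 93.8 and 35.3 CPM in libraries labelled *orb2* RNAi, against 81.7 and 53.7 CPM in those labelled *white* RNAi. Its widest gap was within one label, since replicate 2 labelled *orb2* RNAi was the lowest library and replicate 1 with that label the highest, 2.66 times above it. The log2 fold change was -0.069 (standard error 0.530), and it moved to 0.48 without replicate 2 labelled *orb2* RNAi and to -0.93 without replicate 1 labelled *orb2* RNAi.

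*Hr3* (FBgn0000448, chromosome 2R, 10203995 to 10237348, minus strand) encodes an early-late receptor that switches off early genes and switches on *ftz-f1*. It was the lowest of the 10 genes, with 494 and 151 counts in libraries labelled *orb2* RNAi, against 325 and 83 counts in those labelled *white* RNAi. These are 6.49 and 2.64 CPM, against 5.19 and 2.53 CPM, so that both replicates 1 stood above both replicates 2. The intervals for counting error were 5.93 to 7.08 CPM and 2.24 to 3.10 CPM in libraries labelled *orb2* RNAi, against 4.65 to 5.79 CPM and 2.02 to 3.14 CPM in those labelled *white* RNAi. They did not overlap between replicates 1 and 2 under either label. Such intervals cover counting error only, not the spread between libraries. They may also be too narrow, because sequenced reads are not independent molecules. *CG12912*, *CG46321* and *lncRNA:CR46322*, annotated on the same strand, share 82.7% of the exon bases of *Hr3*, and the first 2 had 0 counts in every library. Which reads the authors' counting gave to *Hr3* is therefore uncertain, and so is its level.

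*Hr39* (FBgn0261239, chromosome 2L, 21237250 to 21259675, plus strand) encodes a nuclear receptor close to FTZ-F1. It was at 174 and 126 CPM in libraries labelled *orb2* RNAi, against 187 and 91.4 CPM in those labelled *white* RNAi. Its order of libraries was that of *Eip74EF* and *Eip75B*, with replicate 1 labelled *white* RNAi highest and replicate 2 with that label lowest.

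*ftz-f1* (FBgn0001078, chromosome 3L, 18750607 to 18801309, minus strand) encodes the receptor that makes prepupal tissues competent to answer the next hormone pulse, and it is switched on once the hormone has fallen. It ran against the other genes, at 13.4 and 20.0 CPM in libraries labelled *orb2* RNAi, against 14.7 and 16.0 CPM in those labelled *white* RNAi. Both replicates 2 lay above both replicates 1, although the intervals for counting error of the libraries labelled *white* RNAi overlapped (13.8 to 15.7 CPM in replicate 1 and 14.6 to 17.4 CPM in replicate 2). The labels overlapped too, and the log2 fold change was 0.12 (standard error 0.316). *lncRNA:CR45939*, on the same strand, shares 29.4% of the exon bases of *ftz-f1* and had 3 counts in replicate 1 labelled *orb2* RNAi and 0 in the other libraries.

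*Eip93F* (FBgn0264490, chromosome 3R, 21949114 to 22014539, plus strand) encodes a transcription factor that specifies adult fates and takes part in the death of larval tissues. It was at 128 and 91.6 CPM in libraries labelled *orb2* RNAi, against 181 and 84.1 CPM in those labelled *white* RNAi. Replicate 1 labelled *white* RNAi stood above the other 3 libraries. The means were 109.8 ± 25.7 CPM and 133 ± 68.7 CPM in libraries labelled *orb2* RNAi and *white* RNAi (SD, n = 2 each), a log2 fold change of -0.27 (standard error 0.433), the lowest of the 10 genes. Without replicate 1 labelled *white* RNAi it was 0.40, so that this library set its sign.

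Levels of different genes were compared per kilobase of annotated exon. *br* led with a mean of 73.5 ± 23.7 CPM per kilobase over the 4 libraries, followed by *Eip75B* (34.0 ± 10.8), *Hr39* (29.0 ± 8.84), *usp* (28.4 ± 2.90) and *Eip74EF* (24.8 ± 7.57), all SD with n = 4. *EcR* (13.9 ± 3.17), *Eip78C* (11.3 ± 4.51) and *Eip93F* (9.55 ± 3.49) followed, then *ftz-f1* (1.87 ± 0.331) and *Hr3* (0.403 ± 0.187). Ranges of neighbors in this order overlapped except between *Eip93F* and *ftz-f1* and between *ftz-f1* and *Hr3*. Same-strand genes share 82.7% of the exon bases of *Hr3* and 29.4% of those of *ftz-f1*. Reads in shared exons may not have been counted for either gene, so their levels per kilobase and the gaps beside them are uncertain. Inside each library, *br* was above *Eip75B*, *Eip75B* above *Hr39*, *Eip74EF* above *EcR* and *EcR* above *Eip78C* in 4 of 4 libraries, while *Hr39* was above *usp* in 2 and *Eip78C* above *Eip93F* in 2. The annotated exons span all transcripts of a gene, from 2 for *usp* to 16 for *br*, and the counts do not show which were used, so the receptor's isoforms were not analysed here.

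**Figure D2:**
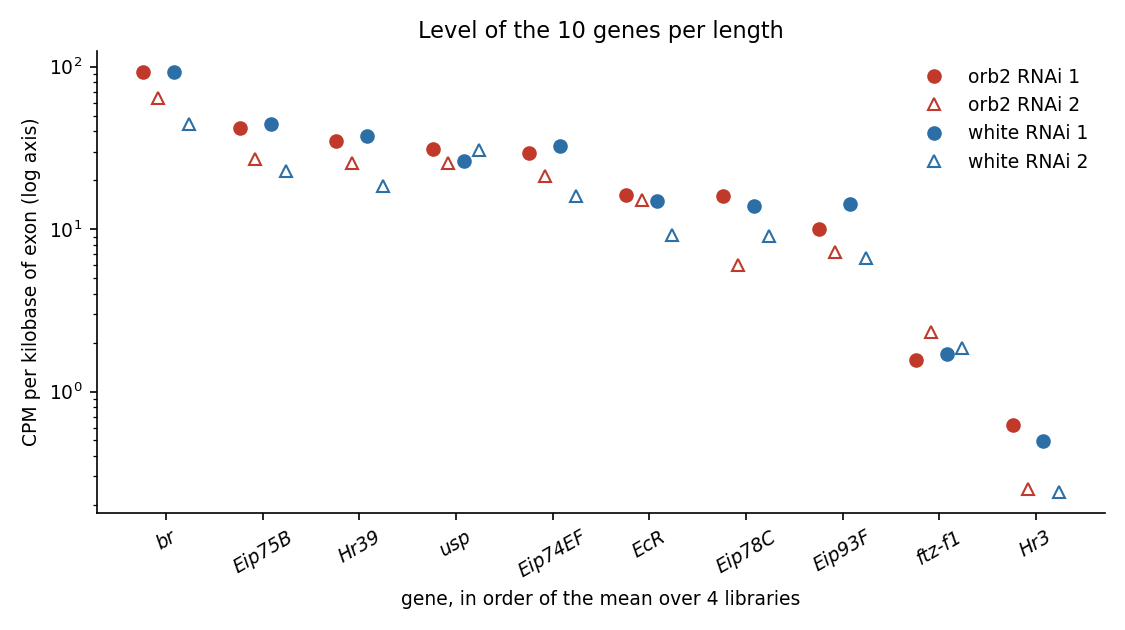
Level of the 10 genes per kilobase of annotated exon (vertical log axis), ordered by the mean over 4 libraries, with red for the *orb2* RNAi label, blue for the *white* RNAi label, circles for replicates 1 and open triangles for replicates 2. *br* had the highest mean (73.5 CPM per kilobase), and *ftz-f1* and *Hr3* lay below all the others. The levels of *ftz-f1* and *Hr3* are uncertain, because they share exon bases with other genes on the same strand.

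The comparison between the labels was meant to ask whether depletion of *orb2* changes mRNA levels in the brain. *orb2* itself had a log2 fold change of 2.29 (standard error 0.394), higher under the *orb2* RNAi label. The counts thus show no depletion under that label, and the comparison is one of labels only. A call needed an absolute log2 fold change over 0.5 together with an adjusted p under 0.05 in edgeR's quasi-likelihood fit. It was given to 0 of the 10 genes, and to 0% of the 13082 features tested. The adjusted p was 0.9998 for each of the 10. At an unadjusted p under 0.05, 0 of the 10 passed, against 4.57% of all features. This count rested on single libraries. Without replicate 1 labelled *white* RNAi, *EcR*, *br* and *Hr39* passed as higher, but so did 2496 of 14167 features as higher and 1606 as lower. *Eip93F* passed as lower without replicate 2 labelled *white* RNAi and with the length trend taken out, and none of the 10 was called in any of these fits. DESeq2 without shrinkage also called 0 of the 10, against 0.879% of the 14672 features to which it gave an adjusted p. The log2 fold changes ran from -0.27 for *Eip93F* to 0.37 for *EcR* with a median of 0.09, and the median over all tested features was 0.02. The *orb2* RNAi label held the 2 highest libraries for 1 of the 10, *EcR*, against 18.5% of all features, and the 2 lowest for 0, against 11.7%. With 2 replicates per label and standard errors of 0.219 to 0.709 on the log2 scale, differences of this size were not detectable, and the values do not show that the levels were equal.

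Apart from *EcR*, which stayed above 0, each of these fold changes took either sign depending on the library left out. Without replicate 2 labelled *white* RNAi, the log2 fold change was -0.23 for *br*, -0.36 for *Eip74EF*, -0.36 for *Eip75B*, -0.18 for *Hr3* and -0.31 for *Hr39*. Without replicate 1 labelled *white* RNAi it was 0.85, 0.68, 0.61, 0.87 and 0.73 for the same genes in the same order. Replicate 2 labelled *white* RNAi was the lowest library for 7 of the 10 genes, against 40.3% of all tested features. Within replicate number 1, the log2 ratio of the library labelled *orb2* RNAi over that labelled *white* RNAi had a median of -0.032 over the 10 genes, and within number 2 it had a median of 0.28.

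**Figure D3:**
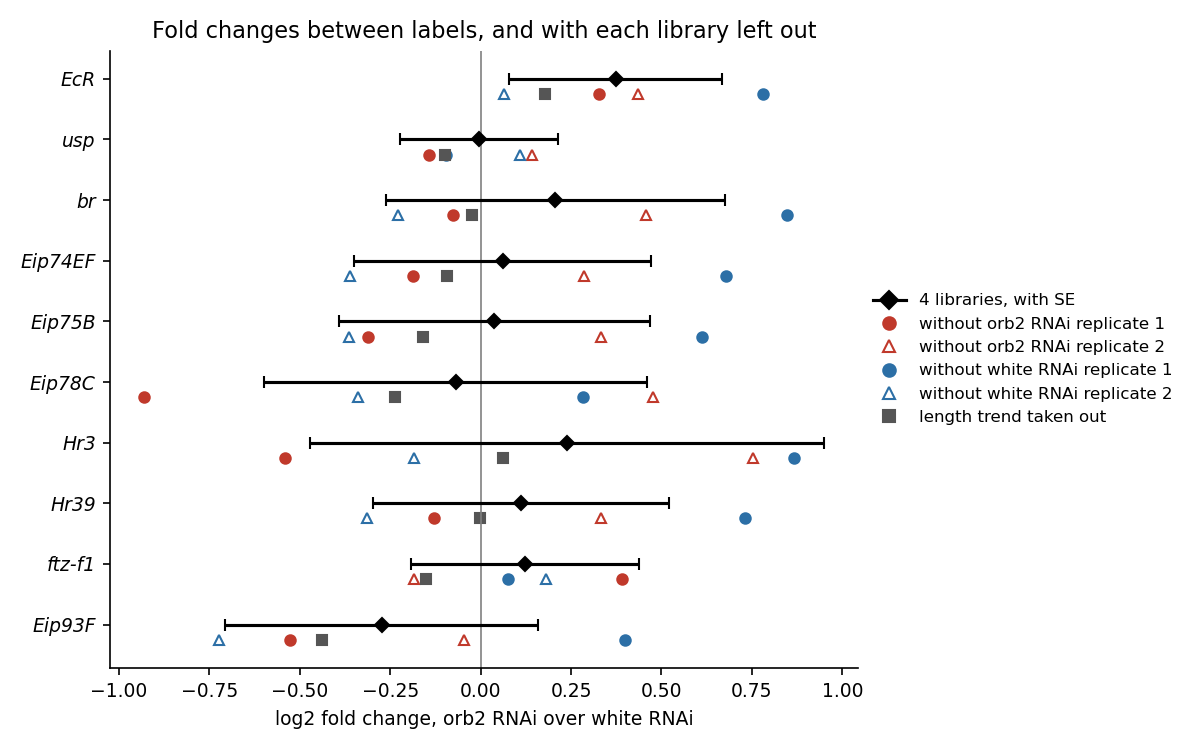
Log2 fold change of the 10 genes, *orb2* RNAi label over *white* RNAi label (horizontal axis), with black diamonds and standard error bars for the fit of all 4 libraries. Under each diamond stand the values without each library in turn (red or blue circles and triangles) and with the length trend taken out (grey squares), and for 9 of the 10 genes these values lie on both sides of 0, the exception being *EcR*.

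For most of the 10 genes the replicates of one label were further apart than the labels. Both replicates 1 lay above both replicates 2 for *br*, *Eip74EF*, *Eip75B*, *Eip78C*, *Hr3*, *Hr39* and *Eip93F*, that is 7 of the 10 genes, against 21.4% of all tested features. The reverse order was seen for 1 of the 10, *ftz-f1*, against 22.3% of all features, and *EcR* and *usp* overlapped. The median log2 ratio of replicate 1 over replicate 2 was 0.48 for the 10 genes under the *orb2* RNAi label and 0.93 under the *white* RNAi label. Over all tested features these medians were -0.022 and 0.017. Under the *orb2* RNAi label the ratios were largest for *Eip78C*, at 1.40, and *Hr3*, at 1.15, which placed them at the 99.3 and 98.6 percentiles of all tested features. Under the *white* RNAi label *Eip93F* (1.10), *br* (1.06), *Hr39* (1.03) and *Eip74EF* (1.02) led, at percentiles of 88.0 to 89.5, because many features differed between those 2 libraries. The labels do not say that a replicate number marks a shared day, litter or batch, so these ratios are a description of 4 libraries and were not tested.

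**Figure D4:**
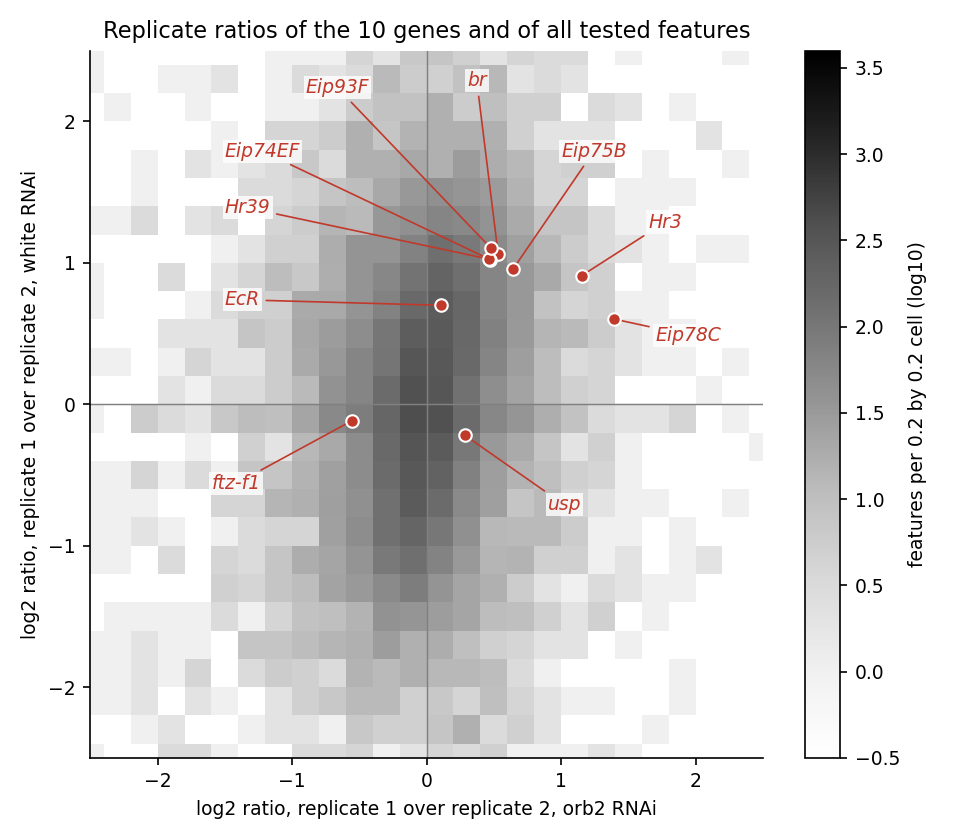
Log2 ratio of replicate 1 over replicate 2 under the *orb2* RNAi label (horizontal axis) and under the *white* RNAi label (vertical axis), with the 10 genes as red points and the number of tested features per cell in grey (log10 scale). *EcR* and the 7 genes with both replicates 1 highest stand in the upper right, *ftz-f1* in the lower left and *usp* in the lower right.

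Exon length moved with this pattern. The level of a feature relative to its mean over the 4 libraries had a Spearman correlation with exon length of 0.252 and 0.0929 in libraries labelled *orb2* RNAi, against 0.305 and -0.348 in those labelled *white* RNAi, across 13040 features that are not independent replicates. Annotated exons of the 10 genes, merged over all transcripts, ran from 3038 bases in *usp* to 20201 in *br*. With each library's length trend taken out, both replicates 1 lay above both replicates 2 for 4 of the 10, *Eip74EF*, *Eip78C*, *Hr3* and *Hr39*, against 19.7% of all tested features. The median log2 ratio of the 10 genes was then 0.33 under the *orb2* RNAi label and 0.011 under the *white* RNAi label. *Eip78C* and *Hr3* kept ratios of 1.34 and 1.01 under the *orb2* RNAi label but were at 0.040 and 0.049 under the *white* RNAi label. *EcR*, *br* and *Eip75B* were at -0.136, -0.104 and -0.0174 under the *white* RNAi label, so that replicate 2 was no longer the lower. *Hr39* remained higher in replicate 1 under both labels, at 0.42 and 0.55, and *ftz-f1* lower, at -0.67 and -0.88. This correction was chosen after the data were seen. Depth also followed the replicate number, as both replicates 1 had more counts than both replicates 2. Neuron markers did so in part, with both replicates 1 above both replicates 2 for 6 of 9, against 21.4% of all features, and for 3 of 9 with the length trend taken out, against 19.7%. Glia markers went the other way for 4 of 6, against 22.3% of all features, and for 5 of 6 with the length trend taken out, against 18.8%. Of the 6 neuroblast markers, 0 had both replicates 1 above and 2 had both below. With the length trend taken out these counts were 1 and 1. Of the 8 imaginal disc markers, 4 were above and 0 below, and 2 and 0 with the length trend taken out. The shares of all features are those just given. The part of depth and of cell makeup in the pattern was not tested.

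Other genes of the hormone pathway were taken from 5 lists. At an unadjusted p under 0.05 in edgeR, 0 genes of the hormone supply, coregulator, brain and nuclear receptor lists passed, and DESeq2 called 0 of them. Of the genes that make, import, export or inactivate the hormone, 10 of 11 were tested, *spo* being the exception, and 0 were called. The *orb2* RNAi label held the 2 lowest libraries for 4, *spok*, *sad*, *nvd* and *phtm*, all enzymes of ecdysone synthesis in the ring gland, against 11.7% of all features. Of the same synthesis, *dib* and *sro* overlapped. *dib* was at 9.52 and 11.5 CPM under the *orb2* RNAi label, against 8.07 and 14.1 CPM under the *white* RNAi label. *sro* was at 13.8 and 19.5 CPM, against 11.9 and 34.5 CPM. *spok* had the lowest log2 fold change of the list, -0.61 (standard error 0.279, unadjusted p = 0.0860, edgeR), at 176 and 159 CPM in libraries labelled *orb2* RNAi, against 201 and 309.7 CPM in those labelled *white* RNAi. *shd*, which makes the active hormone outside the ring gland, had the highest, 0.44, at only 0.853 and 2.54 CPM in libraries labelled *orb2* RNAi, against 2.41 and 0.0610 CPM in those labelled *white* RNAi. The 7 ring gland markers, 5 of them also in this list, summed to 586 and 642 CPM under the *orb2* RNAi label, against 711 and 905 CPM under the *white* RNAi label, a sum made up largely of those shared genes. Neither of the other 2 markers followed the 4 enzymes named first. *Akh*, a hormone gene of the corpora cardiaca, was at 47.6 and 73.9 CPM in libraries labelled *orb2* RNAi, against 48.0 and 90.4 CPM in libraries labelled *white* RNAi, which overlap. *jhamt*, a gene of juvenile hormone synthesis in the corpora allata, was at 13.4 and 16.6 CPM in libraries labelled *orb2* RNAi, against 8.63 and 6.31 CPM in libraries labelled *white* RNAi. *jhamt* thus ran the other way, with no overlap. *Akh*, *jhamt*, *dib* and *sro* were named after their values were seen, and the part of the amount of gland in the list was not tested.

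Of the 10 coregulators of the receptor, 0 were called and the median log2 fold change was 0.13. Log2 fold changes ran from -0.018 for *Utx*, a histone demethylase gene, to 0.52 for *tai*, a steroid receptor coactivator gene. *tai* was at 162 and 113 CPM in libraries labelled *orb2* RNAi, against 116 and 74.9 CPM in those labelled *white* RNAi, which overlap. Both replicates 1 lay above both replicates 2 for 7 of the 10 coregulators, against 21.4% of all features, but for 1 of the 10 with the length trend taken out, against 19.7%. The 10 brain genes linked to the receptor behaved alike, with 7 of 10 before and 2 of 10 after that correction, against the same shares, and with 0 called. Among these, *svp*, a nuclear receptor gene of neuroblast timing, had the highest log2 fold change (0.26) and *myo*, a TGF-beta family ligand gene, the lowest (-0.21). *Syp*, named after its values were seen, encodes an RNA binding protein of late neuroblast timing and stood at 1631 and 954 CPM in libraries labelled *orb2* RNAi, against 1505 and 974 CPM in libraries labelled *white* RNAi. Both replicates 1 thus lay well above both replicates 2, and the labels overlapped.

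Of the 14 other nuclear receptor genes, 13 were tested, *Hr83* being the exception, and 0 were called. The *orb2* RNAi label held the 2 highest libraries for 4, *kni*, *eg*, *Hr51* and *Hnf4*, against 18.5% of all features, and the 2 lowest for 0. *eg* had the highest log2 fold change, 1.60 (standard error 1.03), at 1.77 and 1.12 CPM in libraries labelled *orb2* RNAi, against 0.703 and 0.244 CPM in those labelled *white* RNAi. *Hr96* had the lowest, -0.16. *Hr4*, named here after its values were seen, encodes a further early-late receptor and stood at 191 and 51.6 CPM in libraries labelled *orb2* RNAi, against 192 and 69.9 CPM in those labelled *white* RNAi. It split by replicate number as *Eip78C* and *Hr3* did.

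Of 32 further genes known to respond to the hormone, 28 were tested and edgeR called 0, with a median log2 fold change of -0.027. At an unadjusted p under 0.05, 3 were higher and 5 were lower, against 4.57% of all features in either direction. The 5 lower were *Eig71Ea*, *Eig71Eb*, *Eig71Ed*, *Eig71Ef* and *Eig71Eg*, of 1 gene cluster, all highest in replicate 2 labelled *white* RNAi. Of the 3 higher, *Eig71Ee* is of the same cluster and was high in replicate 2 labelled *orb2* RNAi. These genes are thus not separate cases. Both replicates 1 lay above both replicates 2 for 10 of the 28 and below both for 0, against 21.4% and 22.3% of all features. With the length trend taken out these counts were 8 and 0, against 19.7% and 18.8% of all features. *ImpE2*, a hormone-inducible gene of imaginal discs, was the gene most like *Hr3* of 9093 protein-coding genes compared, with a root mean square difference of 0.041 in centred log2 CPM over the 4 libraries. It was at 945 and 401 CPM in libraries labelled *orb2* RNAi, against 786 and 409 CPM in those labelled *white* RNAi.

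The late puff genes at 71E gave the widest contrast, and it lay in 1 library. *Eig71Ea* had 10984 counts in replicate 2 labelled *white* RNAi, or 335 CPM, against 178 counts in replicate 1 with that label and 40 and 3 counts in those labelled *orb2* RNAi. *Eig71Eg*, with the lowest fitted fold change of the list, had 0 and 0 counts in libraries labelled *orb2* RNAi, against 30 and 1162 in those labelled *white* RNAi. *Eig71Eb*, *Eig71Ec*, *Eig71Ed* and *Eig71Ef* were likewise high in that 1 library, at 50.9 to 200.4 CPM there and at most 1.41 CPM elsewhere. DESeq2 called *Eig71Ea*, *Eig71Eb* and *Eig71Ed* lower, the only calls it made in the 5 lists. *Eig71Ee*, which lies in the same cluster, was high in another library, at 10.99 and 286.9 CPM in libraries labelled *orb2* RNAi, against 5.75 and 7.56 CPM in those labelled *white* RNAi. The glue gene *Sgs3*, expressed in the larval salivary gland, was high in that library too, at 30.4 and 437 CPM in libraries labelled *orb2* RNAi, against 6.98 and 7.99 CPM in those labelled *white* RNAi. *Edg84A*, a cuticle protein gene of prepupae with the highest fitted fold change of the list, had 16 and 17 counts in libraries labelled *orb2* RNAi, against 0 and 0 in those labelled *white* RNAi. *Eig71Ej* and *Eig71Ek* had 0 counts in all 4 libraries, which allows up to 3 counts in each. The part of RNA from salivary gland and other tissues in these values was not tested.

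**Figure D5:**
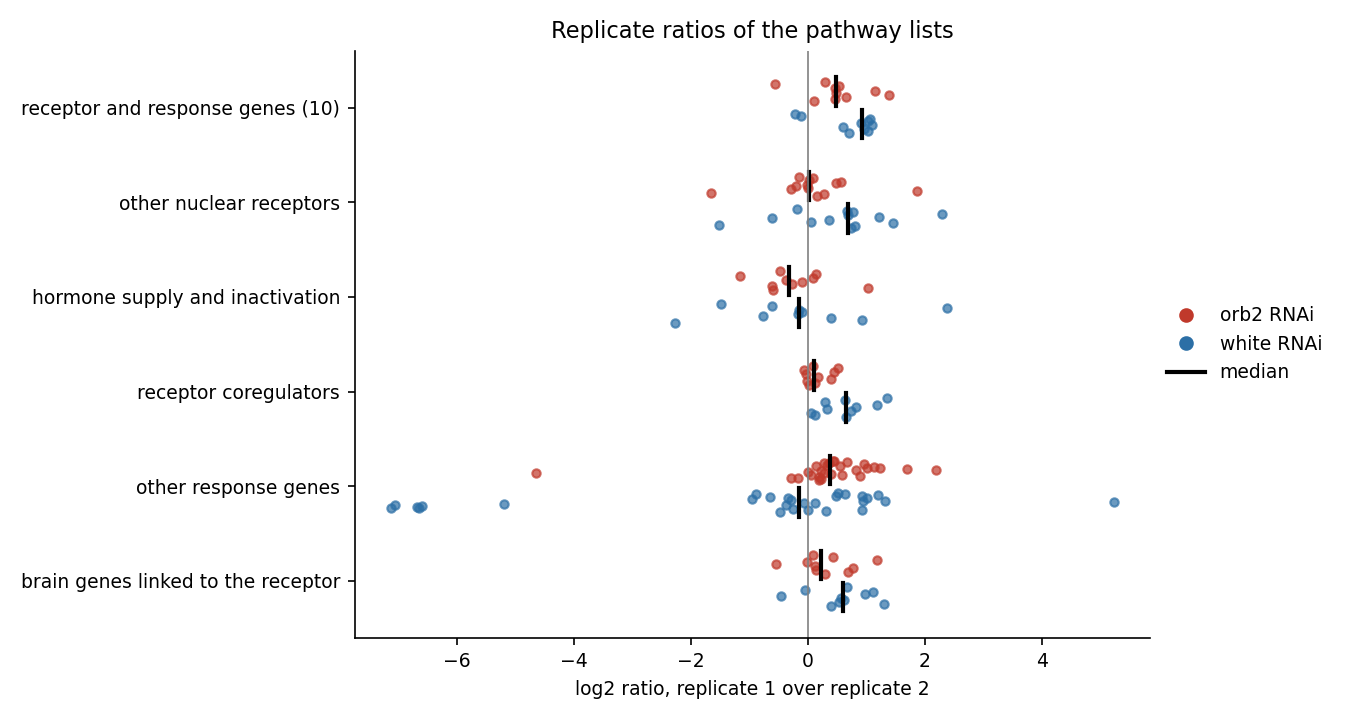
Log2 ratio of replicate 1 over replicate 2 (horizontal axis) for each tested gene of the 10 receptor and response genes and of the 5 pathway lists, in red under the *orb2* RNAi label and blue under the *white* RNAi label, with a black bar at the median. The 10 genes have medians of 0.48 and 0.93, and the blue points far to the left are the genes at 71E that were high in replicate 2 labelled *white* RNAi.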

How the data were processed

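Polyadenylated RNA of whole WL3 brains was sequenced by the authors as 4 libraries. Per the labels and the paper's methods, reads were trimmed with TrimGalore!, aligned with HISAT2 to BDGP6.32 and counted per annotated feature with featureCounts, and the deposited values are these raw counts. The labels and the methods name different TruSeq kits, so counting by strand was not assumed. The TrimGalore! and HISAT2 versions and the strand and multi-mapping settings are not given in the sources used here. The counts sum to more than the read total stated in the methods, so a fragment may have been counted more than once, and intervals for counting error may be too narrow.

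Counts were scaled by TMM, filtered with filterByExpr and tested with edgeR's quasi-likelihood test (edgeR 4.0.16, limma 3.58.1, R 4.3.3) across 13082 features, *orb2* RNAi label over *white* RNAi label, with Benjamini-Hochberg adjustment. Standard errors are the absolute log2 fold change divided by the square root of the quasi-likelihood F. DESeq2 1.42.0 was an alternative, and the code was checked on simulated counts. Ratios between libraries add 0.5 CPM before the logarithm. Exon lengths and positions were taken from Ensembl release 115 (BDGP6.54), a later annotation than the authors used. Length trends were fitted by lowess (span 0.3).

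The 10 genes and all lists were chosen with earlier results of these data known. Named beside the 10 were, for each list, the genes with the highest and lowest log2 fold change and those not counted, the most alike genes over 4 libraries, *orb2* and the most abundant markers. Genes named outside this rule, such as *Hr4*, *Syp*, *sad*, *nvd*, *phtm*, *dib*, *sro*, *kni*, *Hr51*, *Hnf4*, *Akh*, *jhamt*, *Mlp84B*, *Prm*, *up*, *Sgs1*, *Sgs4*, *ss* and the others at 71E, were chosen after their values were seen. All 149 list entries were found, some of them under a current FlyBase symbol that differs from the listed name. Where nothing says that replicates are separate cultures, p-values measure only the spread between these libraries. Alternatives were DESeq2, 2 other normalizations, 2 other filters, a replicate block, the length correction and each library left out in turn. Total counts ran from 34.61 to 75.41 M. No sequences are shown, since no sequence tables were used here.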

Additional observations from a re-analysis of the deposited data

How the results depend on the processing

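All 10 genes stayed uncalled under the 11 alternatives run, with adjusted p from 0.105 to 1.0. *EcR* kept its direction throughout (0.064 to 0.781). With length trends taken out, the log2 fold change turned to -0.025 for *br*, -0.092 for *Eip74EF*, -0.16 for *Eip75B*, -0.0023 for *Hr39* and -0.15 for *ftz-f1*. For *usp* it turned to 0.048 with library totals and to 0.0056 without a filter. With each library left out in turn it ran from -0.14 to 0.14 for *usp*, -0.23 to 0.85 for *br*, -0.36 to 0.68 for *Eip74EF*, -0.36 to 0.61 for *Eip75B*, -0.93 to 0.48 for *Eip78C*, -0.54 to 0.87 for *Hr3*, -0.31 to 0.73 for *Hr39*, -0.18 to 0.39 for *ftz-f1* and -0.72 to 0.40 for *Eip93F*. Counts over all features moved from 0 to 89 higher and 40 lower with DESeq2, and ran from 0 to 91 higher and 0 to 51 lower with a library left out. With the replicate number as a block (replicate block) 62 features were called higher and 11 lower, and still 0 of the 10 genes. Across features, the differences between replicates 1 and 2 under the 2 labels had a Pearson correlation of 0.183, and with only 2 numbers they were not taken as pairs. In comparisons chosen after seeing the data, the count of genes with both replicates 1 above both replicates 2 moved to 4 with length trends taken out, was 8 with DESeq2's size factors and 7 with library totals. The causes of these shifts were not tested beyond the settings named. Counting error (CV), as computed from the counts, is at most 2.38% for the 8 genes other than *Hr3* and *ftz-f1*. It may be larger, since a fragment may have been counted more than once. The part of depth in the spread between replicates was not tested.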

Other observations

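The genes most like *Eip78C* and *br* over the 4 libraries, of 9093 protein-coding genes compared by the root mean square difference of centred log2 CPM, were *CG18249* (0.036), *ItgaPS4* (0.095) and *CG31697* (0.097) for *Eip78C*, and *kek5* (0.018), *FBXO11* (0.025) and *nAChRalpha1* (0.025) for *br*. *nAChRalpha1*, an acetylcholine receptor subunit gene of neurons, was at 126 and 88.0 CPM in libraries labelled *orb2* RNAi, against 126 and 62.2 CPM in those labelled *white* RNAi. With 4 libraries, many genes share such an order, and the likeness is a description. Besides *ImpE2*, the genes most like *Hr3* were *CG7720* (0.063) and *srp* (0.086), a GATA factor gene of hemocytes and fat body. This order is uncertain, given the low counts of *Hr3*.

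Among the nuclear receptor genes, *Hr38*, known as an activity-regulated gene in neurons, ran opposite to *Hr4* by replicate number. It was at 2.68 and 9.55 CPM in libraries labelled *orb2* RNAi, against 2.21 and 7.29 CPM in those labelled *white* RNAi, so that both replicates 2 lay above both replicates 1. *Fbp1*, a fat body gene that answers the hormone, was at 291 and 63.3 CPM in libraries labelled *orb2* RNAi, against 2809 and 73.7 CPM in those labelled *white* RNAi. *Sox14*, a gene of neuron remodelling, was at 159 and 81.1 CPM in libraries labelled *orb2* RNAi, against 185 and 96.8 CPM in those labelled *white* RNAi. *Hr38* and *Sox14* were chosen after their values were seen.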
